A study of Mus musculus with 6 samples.

Results

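Transcripts of 10 genes of metal binding and oxidative stress defence were followed in LSKs (Lin- Sca-1+ c-Kit+ bone marrow cells, the fraction that holds the hematopoietic stem and progenitor cells) of irradiated mice. The genes were the metallothioneins Mt1 and Mt2, the transcription factor gene Nfe2l2, which encodes NRF2, and its well-known targets Slc7a11, Gclc, Gclm, Srxn1, Txnrd1, Hmox1 and Nqo1. They were chosen by name, with earlier results of these data known, and each matched 1 row of the 55487 genes in the expression table. All 10 passed the filter on low counts, which left 15332 genes for testing.

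The libraries came from 3 wild-type (Tespa1+/+) and 3 Tespa1-null (Tespa1-/-) mice or pools of mice. Both groups were irradiated. The labels name the wild types as littermates, whereas the methods describe C57BL/6 mice from another supplier, and a difference of source cannot be told apart from genotype here. Male mice aged 8 to 10 weeks were used, and LSKs were sorted at day 13 after a total body dose of 5 Gy. The null allele (B6.129S-Tespa1tm1Smoc) had been crossed to C57BL/6 for over 6 generations and is carried by every cell of the mouse, so an effect in LSKs cannot be told apart from one that begins in other cells. Whether a library held cells of 1 mouse or of several is not given in the sources used here, and the p-values therefore measure only the spread between these libraries.

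Metallothioneins are small cysteine-rich proteins that bind zinc and copper, and their genes are switched on by the zinc-sensing factor MTF1, by glucocorticoids and by inflammatory signals. NRF2 is normally held by KEAP1 and degraded; under oxidative or electrophilic stress it accumulates, pairs with small MAF proteins and binds antioxidant response elements. Its targets make and recycle glutathione and thioredoxin, break down heme and supply NADPH, and redox control of this kind matters for how stem cells come through radiation.

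The total count ranged from 12856630 to 30576981 per library. Levels are given as normalised read counts, that is, counts scaled to a common library size with TMM factors (CPM), and fold changes are Tespa1-/- over Tespa1+/+. Tespa1 itself, the check of the labels, stood at 34.5, 32.7 and 36.0 CPM in Tespa1+/+ libraries and at 15.3, 14.3 and 14.2 CPM in Tespa1-/- libraries, so transcripts of the locus were reduced but still counted. Over all genes the fold change moved with gene length. When genes were ranked by exon length into 10 equal bins, the medians on the log2 scale were 0.54 in the shortest bin and -0.56 in the longest. For this reason the value after a correction for exon length is given beside each member.

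Before the length correction the 2 metallothioneins and the cystine transporter gene Slc7a11 were higher in Tespa1-/- LSKs by 3 to 5 fold. The other members differed by at most 1.31 fold. After it the log2 fold changes of Mt1, Mt2 and Slc7a11 lay between 1.49 and 2.28, and those of the other members between -0.48 and 0.49. When a call required both a fold above 1.5 and an adjusted p below 0.05 (edgeR quasi-likelihood test, Benjamini-Hochberg adjustment over the genes tested), 3 of the 10 members were called higher, against 14.0% of all genes, and 0 were called lower, against 19.2%. With the fold limit dropped, 4 members passed in the higher direction, against 31.5% of all genes, 3 passed in the lower direction, against 31.8%, and 3 did not pass. The libraries of the groups did not overlap for 4 members that were higher in Tespa1-/- LSKs, against 34.5% of all genes, and for 3 that were lower, against 34.6%. The median log2 fold change over the 10 members was 0.01, and that of all genes tested was 0. After the length correction these medians were 0.28 and 0.11, so corrected values are to be read against 0.11. With the fold limit dropped, the members' shares were near the background, and the description below therefore goes gene by gene. In bulk RNA fewer cells of a type cannot be told apart from less RNA per cell, and markers of the neutrophil lineage were higher and stem cell markers lower in Tespa1-/- libraries (values are given with the marker lists).

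**Figure D1:**
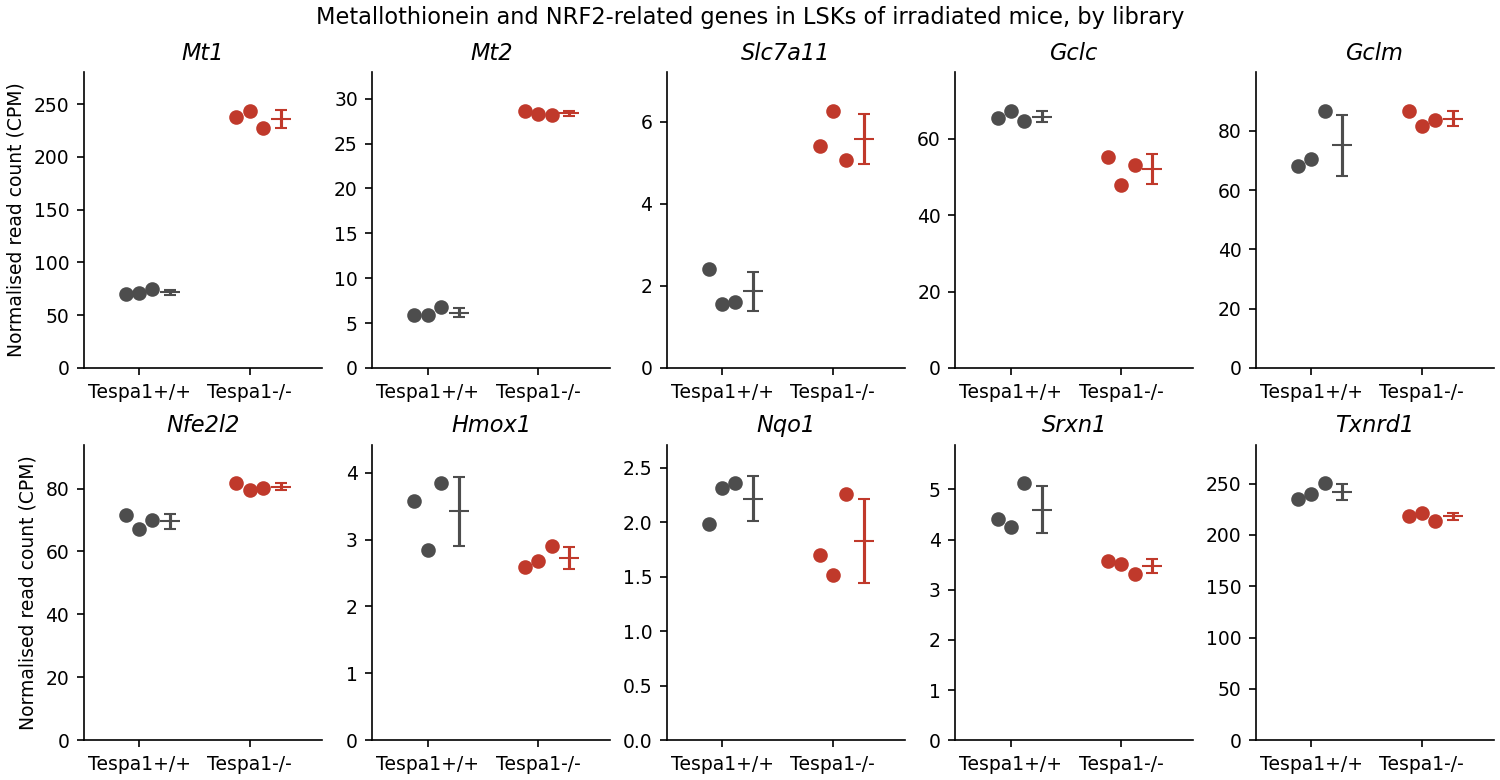
Normalised read count (CPM, vertical axis from 0, own scale per gene) of the 10 genes in the 3 Tespa1+/+ (grey) and 3 Tespa1-/- (red) libraries; points are libraries, the short bar is the mean and the whiskers are the SD. The libraries of the groups are far apart for Mt1, Mt2 and Slc7a11, close but separate for Nfe2l2, Gclc, Srxn1 and Txnrd1, and overlapping for Gclm, Hmox1 and Nqo1.

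Mt1 and Mt2 are neighbours on chromosome 8 of the build GRCm38, both on the plus strand. Mt2 (ENSMUSG00000031762) spans chr8:94172664-94173568 and Mt1 (ENSMUSG00000031765) spans chr8:94179082-94180327, with 5513 bases between them. The 250 bases before each RefSeq start (GRCm38.p6) are shown so that the letters of the metal response element, the motif that MTF1 binds, can be seen in them. The RefSeq start of Mt2 lies before the annotated start of the gene given above. Capitals mark the core TGCACNC or TGCGCNC on either strand. The Mt1 window is chr8:94178839-94179088 and the Mt2 window is chr8:94172368-94172617, both 5′ to 3′ on the plus strand.
Mt1: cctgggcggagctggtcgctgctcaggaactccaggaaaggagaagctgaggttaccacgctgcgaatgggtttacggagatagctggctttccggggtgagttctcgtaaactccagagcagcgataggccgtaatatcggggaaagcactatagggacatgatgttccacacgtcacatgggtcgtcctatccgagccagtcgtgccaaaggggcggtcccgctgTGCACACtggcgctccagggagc
Mt2: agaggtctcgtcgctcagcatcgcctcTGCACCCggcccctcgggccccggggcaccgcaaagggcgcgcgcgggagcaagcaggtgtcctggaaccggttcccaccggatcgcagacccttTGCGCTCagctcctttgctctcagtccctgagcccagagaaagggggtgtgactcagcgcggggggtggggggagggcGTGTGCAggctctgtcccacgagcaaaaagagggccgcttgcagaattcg
The Mt1 window held 1 such core, at bases 23 to 17 before the start. The Mt2 window held 3, at bases 223 to 217, 128 to 122 and 50 to 44, the last on the reverse strand. At least 1 core stood in 21.4% and at least 3 stood in 1.26% of the 32851 mouse promoter windows of the same length. The Mt2 window also held 1 antioxidant response element core, TGACNNNGC, at bases 79 to 71 (tgactcagc, which includes the letters TGACTCA of the AP-1 motif). That core was found in 10.2% of all windows. A match is a description of the letters and was not tested as a binding site. Letters after the RefSeq start were not searched, so cores near another start of transcription may be missed. The numbers of cores are therefore no comparison of the Mt1 and Mt2 promoters.

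Mt1, the more abundant metallothionein, stood at 69.7, 70.8 and 74.6 CPM in the Tespa1+/+ libraries and at 237.5, 243.7 and 227.3 CPM in the Tespa1-/- libraries. The lowest Tespa1-/- library was thus about 3 times the highest Tespa1+/+ library, and the spread within each group was small. The mean went from 71.7 ± 2.58 to 236.2 ± 8.27 CPM (SD, n = 3 per group). This is a log2 fold change of 1.72 with an SE of 0.04 (edgeR, adjusted p = 6.9e-07). After the length correction it was 1.49 (adjusted p = 1.29e-06).

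Mt2 stood at 5.89, 5.86 and 6.75 CPM in the Tespa1+/+ libraries and at 28.7, 28.3 and 28.2 CPM in the Tespa1-/- libraries. The 3 Tespa1-/- values were nearly the same, and all lay more than 4 times above any Tespa1+/+ value. Mt2 thus rose by 2.21 on the log2 scale with an SE of 0.08 (edgeR, adjusted p = 1.67e-06) and 1.74 after the length correction (adjusted p = 6.08e-06). The correction moves both genes because they are short: Mt1 lies in the second bin by exon length, where the median log2 fold change of all genes was 0.41, and Mt2 in the first.

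The metallothionein pool was computed as the sum of both genes. It held 75.6, 76.6 and 81.4 CPM in Tespa1+/+ libraries and 266.2, 272.0 and 255.5 CPM in Tespa1-/- libraries. Mt1 made up most of it in both groups. The ratio of Mt1 to Mt2 counts within a library was 11.8, 12.1 and 11.1 in Tespa1+/+ LSKs and 8.29, 8.61 and 8.08 in Tespa1-/- LSKs. The ratio was lower in every Tespa1-/- library, by 0.48 on the log2 scale (exact two-sided permutation test, p = 0.1, adjusted p = 0.1 over 2 ratios, the smallest p that 3 against 3 allows). After the length correction the log2 fold changes of Mt1 and Mt2, 1.49 and 1.74, lay closer together than before it. That correction used 1246 exon bases for Mt1 and 588 for Mt2, which are less alike than the transcript lengths given next. The part of gene length in this gap therefore depends on the length used and was not tested. The main transcripts of the genes, 549 and 511 bases long, shared 72.0% of their aligned bases, with a longest identical run of 20 bases. An antisense gene, Gm45774, overlaps 432 exon bases of Mt2 and held at most 4 counts in any library. The metallothionein paralogs Mt3 and Mt4 did not pass the filter on low counts.

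Slc7a11 (ENSMUSG00000027737, chr3:49892526-50443614, minus strand) encodes the light chain of system xc-, which imports cystine for glutathione synthesis. It stood at 2.42, 1.55 and 1.62 CPM in Tespa1+/+ libraries and at 5.40, 6.27 and 5.08 CPM in Tespa1-/- libraries. All Tespa1-/- values lay above the Tespa1+/+ values, at low counts of 24 to 49 per Tespa1+/+ library and 63 to 92 per Tespa1-/- library. Slc7a11 rose by 1.60 on the log2 scale with an SE of 0.20 (95% interval 1.13 to 2.06; edgeR, adjusted p = 0.000316). Slc7a11 has 13922 exon bases and lies in the last bin by length, where 0.914% of genes were called higher and 46.4% lower. Its log2 fold change after the length correction was 2.28 (adjusted p = 7.19e-05). Slc3a2, which encodes the heavy chain of the same transporter and is named here after its values were seen, rose from 198 to 289 CPM (log2 fold change 0.55, adjusted p = 9.41e-05).

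**Figure D2:**
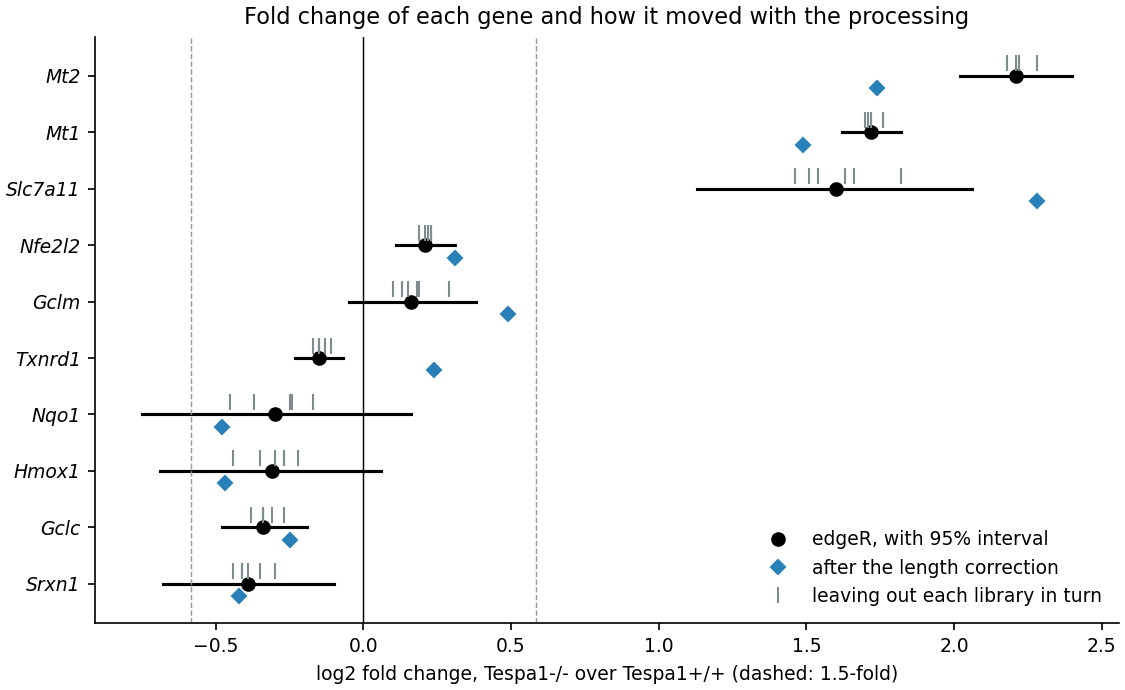
Log2 fold change (Tespa1-/- over Tespa1+/+, horizontal axis) of the 10 genes with its 95% interval from the edgeR fit (black), the value after the length correction (blue diamonds) and the values without each library in turn (grey ticks); dashed lines mark 1.5 fold. Mt2, Mt1 and Slc7a11 lie between 1.60 and 2.21 before the correction and between 1.49 and 2.28 after it, whereas Txnrd1 moves from -0.15 to 0.24.

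Nfe2l2 (ENSMUSG00000015839, chr2:75675513-75704641, minus strand) stood at 71.6, 67.1 and 70.1 CPM in Tespa1+/+ libraries and at 81.7, 79.6 and 80.2 CPM in Tespa1-/- libraries. The groups did not overlap, and Nfe2l2 rose by 0.21 on the log2 scale (SE 0.04; edgeR, adjusted p = 0.00308), or 1.16 fold. After the length correction the rise was 0.31 (adjusted p = 0.000617). Because NRF2 is controlled mainly through the stability of its protein, the transcript level is not a measure of NRF2 activity.

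Glutamate-cysteine ligase, the rate-limiting enzyme of glutathione synthesis, is built from a catalytic subunit (Gclc) and a modifier subunit (Gclm). Gclc (ENSMUSG00000032350, chr9:77754535-77794485, plus strand) stood at 65.4, 67.4 and 64.8 CPM in Tespa1+/+ libraries and at 55.4, 47.8 and 53.1 CPM in Tespa1-/- libraries. All Tespa1-/- values lay below the Tespa1+/+ values. Gclc fell by 0.34 on the log2 scale (SE 0.06; edgeR, adjusted p = 0.00219), or 1.26 fold. After the length correction the log2 fold change was -0.25 (adjusted p = 0.011).

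Gclm (ENSMUSG00000028124, chr3:122245557-122270732, plus strand) stood at 68.2, 70.3 and 86.8 CPM in Tespa1+/+ libraries and at 86.7, 81.8 and 83.6 CPM in Tespa1-/- libraries. The groups overlapped because the third Tespa1+/+ library was as high as the highest Tespa1-/- library. For Gclm the log2 fold change was 0.16 (95% interval -0.05 to 0.38; edgeR, adjusted p = 0.154). It was 0.29 without the third Tespa1+/+ library (adjusted p = 0.00311) and 0.49 after the length correction (adjusted p = 0.00275), so the call rests on these choices. The Gclm count is uncertain in a further respect: 244 of its exon bases lie within Gm6061, a gene on the same strand with 1358 to 2632 counts per library, more than Gclm had in every library. Gm6061 was itself called higher, from 85.9 to 137 CPM (log2 fold change 0.68; edgeR, adjusted p = 2.35e-05), and was at 0.16 after the length correction. Its part in the Gclm values was not tested. An antisense gene, Gm17494, overlaps 296 exon bases of Gclm and held 21 to 56 counts per library.

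The ratio of Gclm to Gclc counts was 1.04, 1.04 and 1.34 in Tespa1+/+ libraries and 1.57, 1.71 and 1.57 in Tespa1-/- libraries. It was higher in every Tespa1-/- library, by 0.51 on the log2 scale (exact two-sided permutation test, p = 0.1, adjusted p = 0.1 over 2 ratios, the smallest p that the design allows). The overlap of Gclm with Gm6061 bears on this ratio as well, and its part was not tested.

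**Figure D3:**
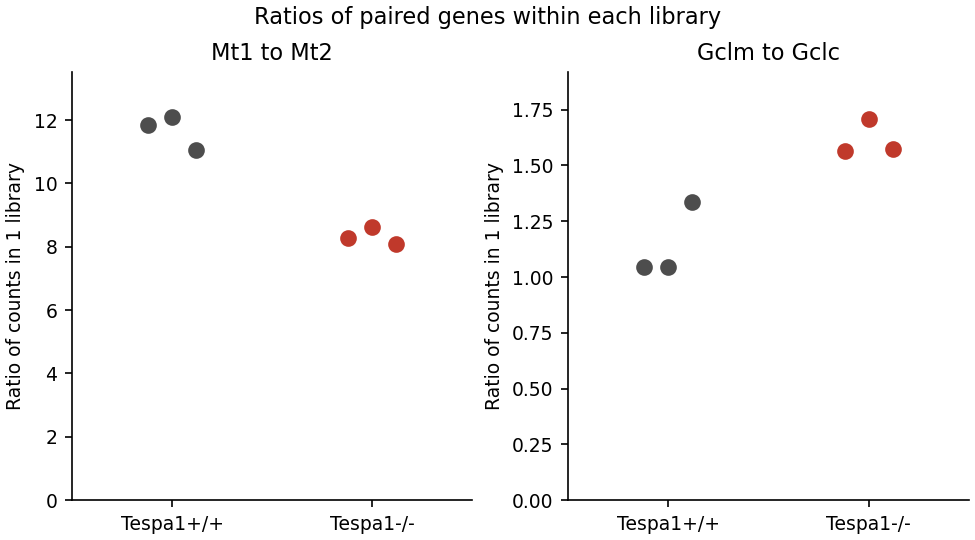
Ratio of counts within a library for Mt1 over Mt2 and for Gclm over Gclc (vertical axis from 0, no unit), with 1 point per library. The Mt1 to Mt2 ratio lies between 11.1 and 12.1 in Tespa1+/+ and between 8.08 and 8.61 in Tespa1-/- libraries, and the Gclm to Gclc ratio between 1.04 and 1.34 and between 1.57 and 1.71.

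Of the genes that reduce oxidised proteins, Txnrd1 (ENSMUSG00000020250, chr10:82833951-82897712, plus strand), the cytosolic thioredoxin reductase, stood at 234.9, 240.3 and 250.5 CPM in Tespa1+/+ libraries and at 218.5, 221.5 and 214.0 CPM in Tespa1-/- libraries. The groups did not overlap. The log2 fold change was -0.15 (SE 0.03; edgeR, adjusted p = 0.00665), or 1.11 fold lower. The length correction turned its direction, to 0.24 (adjusted p = 0.000898), since the gene has 7086 exon bases and the median of genes in its bin was -0.35. No direction is drawn for Txnrd1.

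Srxn1 (ENSMUSG00000032802, chr2:152105516-152111376, plus strand), the sulfiredoxin that restores overoxidised peroxiredoxins, stood at 4.40, 4.24 and 5.13 CPM in Tespa1+/+ libraries and at 3.58, 3.51 and 3.31 CPM in Tespa1-/- libraries. The groups did not overlap, at 41 to 134 counts per library. After the length correction the log2 fold change of Srxn1 was -0.42 (adjusted p = 0.0225). Without that correction Srxn1 fell by 0.39 on the log2 scale (SE 0.12; edgeR, adjusted p = 0.0274), or 1.31 fold. It no longer passed when the third Tespa1+/+ library or any Tespa1-/- library was left out, with adjusted p-values from 0.0575 to 0.0881, nor by DESeq2 (adjusted p = 0.207).

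Hmox1 (ENSMUSG00000005413, chr8:75093621-75100589, plus strand) encodes heme oxygenase-1, which degrades heme to biliverdin, iron and carbon monoxide. It stood at 3.58, 2.85 and 3.85 CPM in Tespa1+/+ libraries and at 2.58, 2.69 and 2.90 CPM in Tespa1-/- libraries. The second Tespa1+/+ library overlapped the Tespa1-/- group. The log2 fold change was -0.31 (95% interval -0.69 to 0.06; edgeR, adjusted p = 0.127), and -0.47 after the length correction (adjusted p = 0.038).

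Nqo1 (ENSMUSG00000003849, chr8:107388225-107403206, minus strand) encodes a quinone reductase and is often read as a measure of NRF2 activity. It stood at 1.98, 2.31 and 2.36 CPM in Tespa1+/+ libraries and at 1.70, 1.52 and 2.26 CPM in Tespa1-/- libraries. The groups overlapped, at 22 to 73 counts per library. The log2 fold change was -0.30 (95% interval -0.75 to 0.16; edgeR, adjusted p = 0.214), and -0.48 after the length correction (adjusted p = 0.0654). The interval leaves room for a reduction or a small rise, and a difference was not detectable at this depth.

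Antioxidant response element cores were looked for in the RefSeq windows of the members, of which 8 of 10 matched by symbol; Gclc and Hmox1 did not. In addition to Mt2, the core TGACNNNGC was found once before Gclm, once before Nfe2l2 and once in 1 of the 3 Txnrd1 windows. Those letters were not in the windows of Mt1, Nqo1, Slc7a11 and Srxn1, which says nothing of elements further away.

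**Figure D4:**
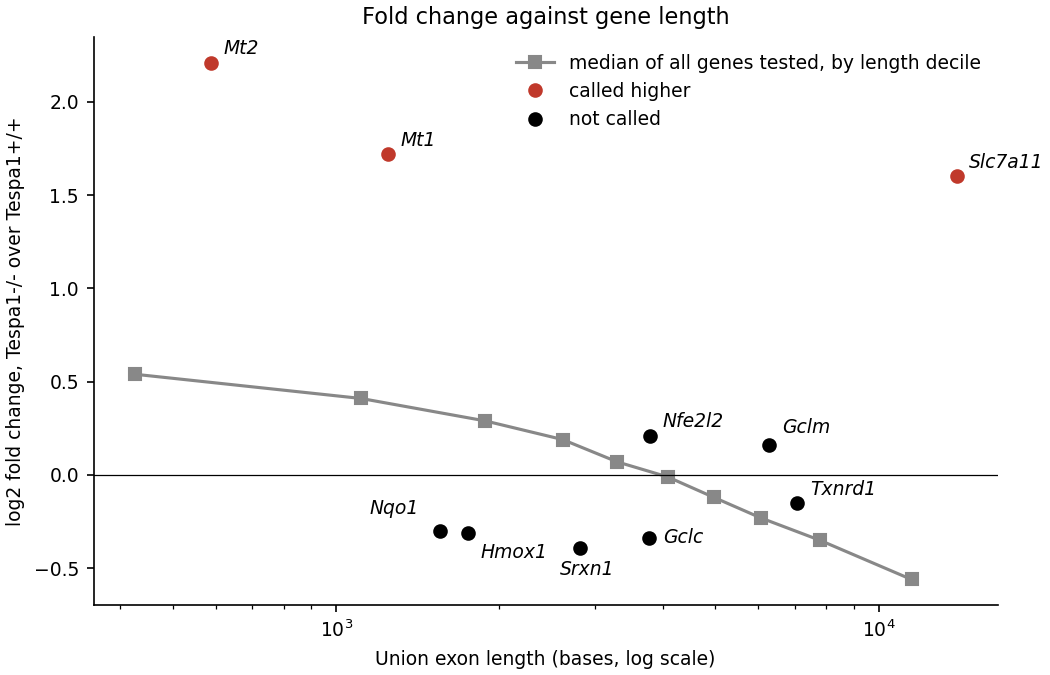
Log2 fold change (vertical axis) against exon length in bases (horizontal axis, log scale) for the 10 genes, with the median of all genes tested in each of 10 bins by length (grey squares). The medians descend from 0.54 to -0.56; Mt1, Mt2 and Slc7a11 lie far above them, and Txnrd1 lies above the median of its bin although its own value is below 0.

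To compare levels between genes, CPM was divided by exon length in kilobases. In Tespa1+/+ LSKs, Mt1 had the highest level per length (57.5 ± 2.07 CPM per kb, SD, n = 3), ahead of Txnrd1 (34.1 ± 1.11). Nfe2l2 (18.3 ± 0.610) and Gclc (17.5 ± 0.355) followed with overlapping values, then Gclm (11.9 ± 1.62) and Mt2 (10.5 ± 0.855), which also overlapped. Hmox1, Srxn1 and Nqo1 lay between 1.43 and 1.96 with overlaps between neighbours, and Slc7a11 was lowest at 0.134. In Tespa1-/- LSKs Mt1 was again highest, at 189.6 ± 6.63 CPM per kb, and Mt2 was next, at 48.3 ± 0.439, above Txnrd1 at 30.8 ± 0.528. Mt2 thus went from the sixth to the second place, and Slc7a11 stayed last at 0.401. The order depends on the length used for each gene, since the deposited FPKM values rest on other lengths and placed Nfe2l2 ahead of Txnrd1 and Nqo1 ahead of Hmox1 and Srxn1 in Tespa1-/- LSKs.

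Other genes of the pathways were read from 8 lists with 116 genes, of which 100 were tested. The lists, too, were chosen with earlier results of these data known. In all, 24 of the 100 were called higher, against 14.0% of all genes tested, and 10 were called lower, against 19.2%. At any fold 45 passed in the higher direction, against 31.5%, and 21 in the lower, against 31.8%. The median log2 fold change was 0.20. With library totals in place of TMM factors 15 were called higher, and 10 or 11 with limma on FPKM values. After the length correction 5 were called lower.

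Among regulators and partners of NRF2, 0 of 15 were called higher and 1 was called lower, while 3 passed in the higher and 7 in the lower direction at any fold; over all genes these shares were 14.0%, 19.2%, 31.5% and 31.8%. The 1 called lower became 4 with library totals, 3 with limma on FPKM values and 2 without the first or the second Tespa1-/- library, and 2 were called higher after the length correction. Keap1, which holds NRF2 in the cytoplasm, was at 93.1 ± 12.8 and 107 ± 8.26 CPM and did not pass (log2 fold change 0.20; edgeR, adjusted p = 0.128). Bach1, a repressor that competes for the same elements and is released by heme, fell by 0.50 on the log2 scale (adjusted p = 0.00141). The small MAF gene Maff fell from 24.2 to 14.6 CPM (log2 fold change -0.73, adjusted p = 6.79e-05) and Mafk fell by 0.54 (adjusted p = 8.78e-05), while Mafg was at 89.2 and 86.2 CPM and did not pass (adjusted p = 0.298). Nfe2l1, the relative of NRF2 that controls proteasome genes, fell by 0.43 (adjusted p = 0.0306). After the length correction Bach1 and Nfe2l1 did not pass (adjusted p = 0.0948 and 0.316), while Keap1 (0.39, adjusted p = 0.0161) and Mafg (0.22, adjusted p = 0.00206) passed in the higher direction.

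Genes of glutathione and thioredoxin use were mostly higher: 8 of 17 tested were called higher (14.0% of all genes), 0 were called lower (19.2%) and 13 passed in the higher direction (31.5%). The median log2 fold change was 0.55, and 0.60 after the length correction, against 0 and 0.11 for all genes tested. The number called higher was 5 with library totals, 3 with limma on FPKM values and 4 with glmTreat, a test against a fold of 1.5. Gstm1, a glutathione transferase, rose from 153 to 310 CPM (log2 fold change 1.02; edgeR, adjusted p = 2.06e-05); it has close paralogs, between which reads may have been divided. All 5 tested genes of NADPH supply passed in the higher direction, against 31.5% of all genes. Of these, 2 were called (14.0% of all genes), and 1 with library totals or without the first Tespa1+/+ or the second Tespa1-/- library. Pgd of the pentose phosphate pathway rose from 327 to 527 CPM (log2 fold change 0.69, adjusted p = 1.63e-06). The detoxification and export list was mixed: of 14 tested, 3 were called higher (14.0% of all genes) and 3 lower (19.2%). Within it the reductase gene Ptgr1 rose from 70.5 to 122 CPM (log2 fold change 0.80, adjusted p = 7.96e-06), and Abcc1, an exporter of glutathione conjugates, fell from 144 to 85.3 CPM (-0.75, adjusted p = 2.58e-06), a fall that was -0.03 after the length correction (adjusted p = 0.423).

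In heme and iron handling 3 of 13 were called higher (14.0% of all genes) and 0 lower (19.2%). The transferrin receptor gene Tfrc rose from 198 to 346 CPM (log2 fold change 0.81; edgeR, adjusted p = 1.77e-05), and Ftl1, ferritin light chain, rose from 179 to 291 CPM (0.70, adjusted p = 0.000578), or by 0.48 after the length correction, which is below the fold limit. Neither the heavy chain gene Fth1 (407 and 441 CPM, adjusted p = 0.283) nor Hmox2, the constitutive heme oxygenase (63.6 and 69.3 CPM, adjusted p = 0.497), passed. Ferritin genes have many processed pseudogenes, so their counts are uncertain.

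The list of metallothioneins, MTF1 and zinc transporters holds neither Mt1 nor Mt2. In it 1 of 18 was called higher (14.0% of all genes) and 2 lower (19.2%). These calls moved with the length correction. After it Mtf1 (0.96), Slc30a5 (0.82), Slc39a7 (0.77) and Slc30a7 (0.66) were above the fold limit and passed. Of the 2 called lower, Slc39a10 stayed beyond the limit (-0.68), while Slc39a14 went from -0.65 to -0.08. Mtf1, the zinc sensor that drives metallothionein genes, rose from 39.1 to 53.9 CPM (log2 fold change 0.47; edgeR, adjusted p = 0.00498), and by 0.96 after the length correction. Slc30a1, the plasma membrane zinc exporter and another MTF1 target, was at 13.03 ± 0.538 and 15.3 ± 1.25 CPM (log2 fold change 0.23, adjusted p = 0.0527), and passed after the length correction (0.47, adjusted p = 0.00295). Slc39a7, which releases zinc from the endoplasmic reticulum, rose from 59.7 to 106 CPM (0.83, adjusted p = 0.00188), and the zinc importer gene Slc39a10 fell from 40.8 to 20.6 CPM (-0.99, adjusted p = 5.89e-05). All 8 copper genes passed, 6 higher and 2 lower, against 31.5% and 31.8% of all genes. The copper chaperone gene Atox1 rose from 39.8 to 80.2 CPM (1.01, adjusted p = 1.42e-05), but by 0.52 after the length correction, below the fold limit. Atp7a, which pumps copper out, fell from 9.73 to 2.54 CPM (-1.94, adjusted p = 3.1e-05). The list of glucocorticoid-induced genes, a further class that shares an inducer with metallothioneins, held 10 genes, among them the receptor gene Nr3c1. Of the 10, 3 were called higher (14.0% of all genes) and 2 lower (19.2%). Klf9 rose from 39.0 to 72.0 CPM (0.88, adjusted p = 5.55e-06), and Per1 fell from 223 to 130 CPM (-0.78, adjusted p = 0.000117), which was -0.51 after the length correction and below the fold limit.

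**Figure D5:**
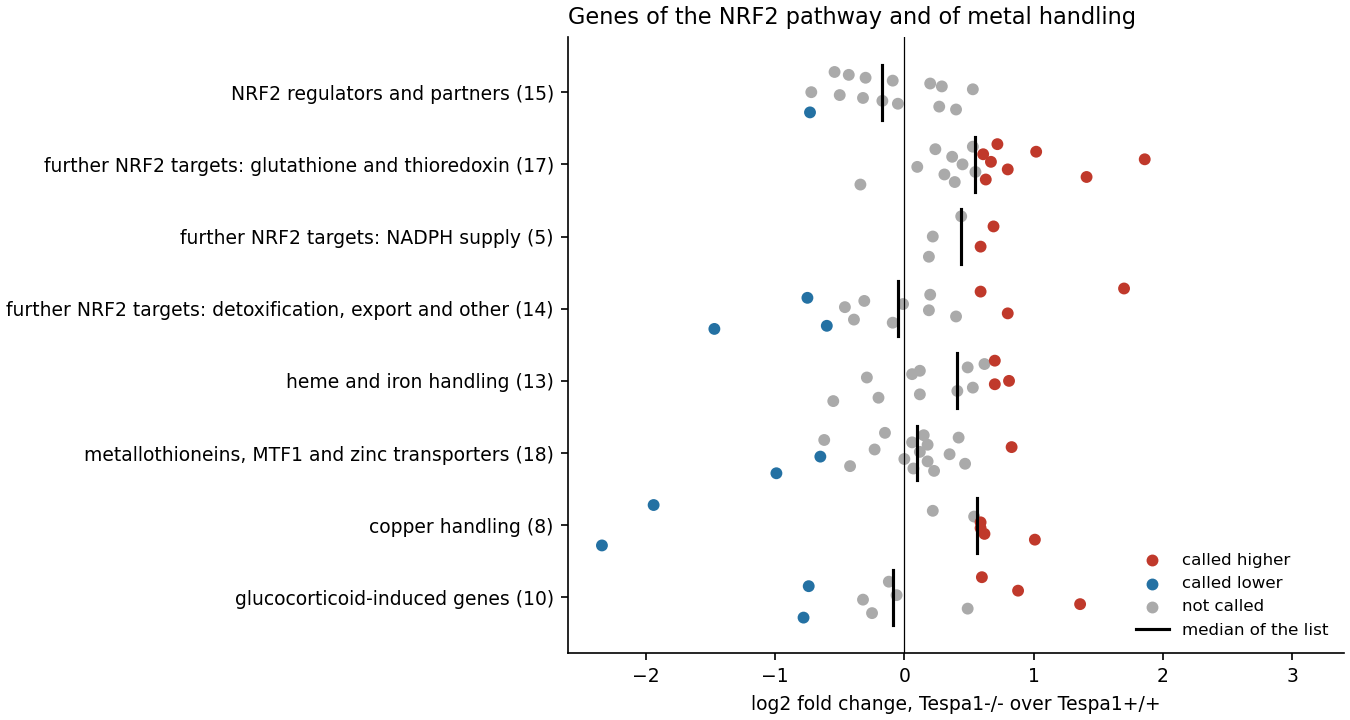
Log2 fold change (horizontal axis) of each tested gene of the 8 lists, with the number tested in brackets; red points were called higher, blue lower and grey neither, and the bar is the median of the list. The median is 0.55 for glutathione and thioredoxin genes and 0.56 for copper genes, and -0.17 for the regulators of NRF2.

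The genes whose centred log2 CPM over the 6 libraries lay nearest to Mt1, by Euclidean distance, were Atf5 (0.0881), Fkbp11 (0.168), Degs2 (0.197), Pglyrp1 (0.221) and 1110008P14Rik (0.224). Atf5, a stress-responsive transcription factor of the ATF family, rose from 17.7 to 60.2 CPM. Mt2 ranked 63 of 15331 genes in likeness to Mt1, as its difference was larger. Nearest to Nfe2l2 were Kmt5a, Nudt4, Cstf1, Rab18 and Spop, with log2 fold changes from 0.19 to 0.23. With 3 libraries per group, such likeness is mostly a matter of equal fold change.

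Markers of cell types were summed in each library. Over all genes tested, 14.0% were called higher and 19.2% lower. Of 11 stem and progenitor markers 10 were called lower, and their summed level was 1313 to 1349 CPM in Tespa1+/+ and 704 to 728 CPM in Tespa1-/- libraries. Kit, Cd34 and Flt3 held most of this sum. After the length correction Kit went from -0.97 to -0.48 and Cd34 from -0.77 to -0.37, inside the fold limit. The other called markers stayed lower beyond the limit, Flt3 at -0.69. Of 14 neutrophil-lineage markers 13 were tested and 11 were called higher, with sums of 10600 to 11350 and 17600 to 18450 CPM. Mpo held most of both sums, at means of 7524 and 10500 CPM, with a fold under 1.5. Larger rises from low levels hardly show in these sums: S100a9 went from 0.905 to 114.6 CPM and Ngp from 0.252 to 72.0 CPM. Cxcr2 did not pass, and 0 were called lower. Retnlg and Ly6g were at 3 counts or fewer in Tespa1+/+ libraries. Of 14 monocyte and macrophage markers 9 were tested. Among these 1 was called higher and 3 lower, with sums over the list of 337 to 354 and 307 to 349 CPM and Marco at 3 counts or fewer in every library. Erythroid markers (12, of which 10 were tested, with 4 called higher and 5 lower) summed to 135 to 140 and 95.4 to 98.9 CPM. Among 11 B lineage and plasma cell markers 10 were tested, with 2 called higher and 5 lower. They summed to 298 to 322 and 504 to 524 CPM, with Ms4a1 at 3 counts or fewer. T cell markers, 7 in all, summed to 15.6 to 17.0 and 8.13 to 9.10 CPM. Only 3 of them had enough counts to be tested, and these 3 were called lower. These values moved with the groups in the same 6 libraries as Mt1, Mt2 and Slc7a11, and their part in the result was not tested.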

How the data were processed

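Per the labels, poly-A RNA of 6 LSK libraries was sequenced with a stranded paired-end kit. The authors deposited 1 table with, per gene and library, raw counts that were not normalised and FPKM values, which rest on the same counts scaled by library total and a gene length. The submitters' processing notes name CASAVA 1.8, HISAT2, StringTie, edgeR and the build GRCm38; the counting step, its strand setting and the annotation are not given in the sources used here. Positions and exon lengths were taken from GENCODE M21 (GRCm38), in which all 10 members had the coordinates of the table.

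The deposited counts passed through filterByExpr and TMM scaling, and the 15332 genes that remained entered the quasi-likelihood F-test of edgeR 4.0.16 (R 4.3.3; no covariates, all 6 libraries). The common biological coefficient of variation was 0.11. The length correction fits the deviation of each library from the mean by loess (span 0.5) on exon length and uses it as an offset. Ratios were compared with an exact permutation test. A count of 3 was taken as the limit that a count of 0 allows. Motifs were searched on both strands of the RefSeq promoter windows. The scripts were tested on simulated data.

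Named genes were the members, Tespa1, a set of regulators, from each list the called gene with the largest rise and the largest fall at a mean count of at least 100, and the 5 nearest genes to Mt1 and to Nfe2l2. The members and lists were chosen with earlier results of these data known. Alternatives were library totals, RLE factors, no filter, a filter of 10 counts, DESeq2 1.42.0, limma 3.58.1 on log2(FPKM + 1) and log2(FPKM + 0.1), glmTreat, length corrections, the replicate number as a block and leaving out each library.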

Additional observations from a re-analysis of the deposited data

How the results depend on the processing

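Mt1, Mt2, Slc7a11, Nfe2l2 and Gclc kept their direction in every setting in which they were tested, and passed at an adjusted p under 0.05 in each, except that glmTreat, which tests against a fold of 1.5, gave Nfe2l2 and Gclc an adjusted p of 1. The log2 fold change ranged from 1.49 to 1.76 for Mt1, from 1.74 to 2.28 for Mt2, from 1.46 to 2.28 for Slc7a11, from 0.11 to 0.31 for Nfe2l2 and from -0.44 to -0.25 for Gclc. Slc7a11 lay under the FPKM filter of both limma settings, which therefore called 2 members higher in place of 3. Txnrd1 was reversed by the length corrections, at 0.24 with exon length and 0.22 with the length implied by FPKM, which follows from the offset for long genes. Gclm passed with these corrections (0.49 and 0.41). Hmox1 passed with limma on log2(FPKM + 1) (-0.24) and log2(FPKM + 0.1) (-0.39) and with the exon length correction (-0.47). Srxn1 did not pass without the filter (-0.39), by DESeq2 (-0.40) or with the replicate block (-0.39, adjusted p = 0.0608); the cause was not tested.

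With 1 library left out, the log2 fold change ranged from -0.44 to -0.30 for Srxn1, from -0.44 to -0.22 for Hmox1 (passing without the second Tespa1+/+ library) and from 0.10 to 0.29 for Gclm. The pathway genes called higher, 24 in the report, numbered 15 with library totals, 10 and 11 with limma on FPKM with pseudocounts of 1 and 0.1, and 10 with glmTreat. Those called lower, 10 in the report, numbered 5 and 6 with the length corrections. Library totals shifted the median log2 fold change of all genes by -0.10 and called 1491 genes higher and 3516 lower, against 2148 and 2951 with TMM. Same-numbered libraries did not deviate together (correlations of 0.046, 0.011 and 0.060), so the numbers do not pair them; with the block Mt1 was at 1.72, Mt2 at 2.21 and Slc7a11 at 1.61, and of the members only Srxn1 changed its call. Low counts limit Srxn1, Hmox1, Nqo1 and Slc7a11.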

Other observations

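Some genes of the pathway lists varied between libraries of 1 group more than any member did; they are named after their values were seen. Slc39a9, a zinc transporter gene, stood at 58.5, 21.6 and 25.3 CPM in Tespa1+/+ libraries and at 15.4, 43.3 and 9.36 CPM in Tespa1-/- libraries. Slc48a1, a heme transporter gene, stood at 50.5, 52.7 and 117.3 CPM and at 48.1, 140.0 and 149.4 CPM. Nfe2, a relative of NRF2, stood at 91.7, 45.5 and 97.6 CPM and at 92.9, 94.4 and 30.7 CPM. No single library was the odd one in all 3 genes.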
